A study of Mus musculus with 14 samples.

Results

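The genes described here are 32 mouse genes that move calcium and other ions across the membranes of the heart muscle cell. They were chosen by symbol, as members of the calcium release and uptake machinery, the L-type calcium channel, the sodium and potassium channels, the pacemaker channels, the connexins and the sodium pump, and all 32 were found among the 33459 gene IDs of the count table. The data are 14 messenger RNA sequencing libraries from C57BL/6 mice, either wild type (WT) or lacking Fhl2 (KO), that were 21 weeks old and had spent 8 weeks on a high-fat diet. Fhl2 encodes a LIM-domain protein of heart muscle and other tissues. Heart is represented by 4 WT and 4 KO libraries, numbered 1 to 4, and gonadal white adipose tissue (gWAT) by 3 WT and 3 KO libraries, numbered 1, 3 and 4. All groups share the strain, the age and the diet, so no mouse on ordinary chow is included. The labels name the knockout without saying which part of the gene was removed, and they do not say that libraries of a group came from separate mice. The p-values therefore measure the spread between these libraries, which may be technical.

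In a heartbeat, calcium entering through the L-type channel opens the ryanodine receptor, which releases stored calcium from the sarcoplasmic reticulum onto the contractile proteins. The calcium pump of that store, held back by phospholamban, and the sodium-calcium exchanger then remove it, and potassium currents restore the resting voltage. White fat has no such cycle, but adipocytes, vessels and resident immune cells use several of the same calcium pumps, potassium channels and connexins.

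Heart libraries held 10835092 to 13272412 counts and gWAT libraries 15105019 to 16040188. Fhl2 was at 1204 to 1631 CPM (read counts scaled by library size) in WT heart and 33.4 to 44.2 CPM in KO heart, and at 3.61 to 4.98 against 0.208 to 0.375 CPM in gWAT, lower in every KO library, as labelled. Labelled tissues were checked with marker genes. The summed level of 6 cardiomyocyte markers was 30300 to 35696 CPM in heart and 8.91 to 13.5 CPM in gWAT. The summed level of 4 white adipocyte markers was 7270 to 12804 CPM in gWAT and 12.1 to 111 CPM in heart. In tissue RNA, fewer cells of a type and less RNA per cell cannot be told apart.

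Upstream sequence was available for 25 of the 32 genes, in 29 windows of 250 bases that end at a RefSeq transcription start (build GRCm38.p6). The windows printed here are those of Ryr2 and S100a1, whose levels differed between genotypes in fat, of Pln and Abcc9, whose levels differed between numbered sets of heart libraries, and of Casq2, the member window with a MEF2 box. Each is written 5′ to 3′ on the gene's own strand, and capitals mark motif matches. The windows are chr13:12106946-12107195 on the minus strand for Ryr2, chr3:90514331-90514580 on the minus strand for S100a1, chr10:53337436-53337685 on the plus strand for Pln, chr6:142702275-142702524 on the minus strand for Abcc9 and chr3:102086165-102086414 on the plus strand for Casq2.
Ryr2: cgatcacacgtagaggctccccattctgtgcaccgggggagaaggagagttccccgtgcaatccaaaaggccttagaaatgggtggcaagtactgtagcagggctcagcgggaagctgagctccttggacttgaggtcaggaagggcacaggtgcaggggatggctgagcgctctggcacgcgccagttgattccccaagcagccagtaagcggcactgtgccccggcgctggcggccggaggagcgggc
S100a1: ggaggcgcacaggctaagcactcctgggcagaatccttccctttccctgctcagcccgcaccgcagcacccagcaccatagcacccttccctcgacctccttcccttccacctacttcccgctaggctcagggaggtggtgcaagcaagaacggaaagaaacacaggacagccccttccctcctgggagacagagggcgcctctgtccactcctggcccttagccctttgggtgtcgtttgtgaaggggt
Pln: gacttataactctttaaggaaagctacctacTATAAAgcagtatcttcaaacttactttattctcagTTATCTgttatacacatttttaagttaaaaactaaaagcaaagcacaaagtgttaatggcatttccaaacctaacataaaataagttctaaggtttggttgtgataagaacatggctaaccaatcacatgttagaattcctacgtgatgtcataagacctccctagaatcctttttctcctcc
Abcc9: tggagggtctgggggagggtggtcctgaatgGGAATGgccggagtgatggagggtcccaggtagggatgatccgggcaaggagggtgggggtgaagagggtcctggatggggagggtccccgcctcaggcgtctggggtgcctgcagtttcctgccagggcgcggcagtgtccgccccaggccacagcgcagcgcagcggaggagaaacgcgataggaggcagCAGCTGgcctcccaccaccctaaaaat
Casq2: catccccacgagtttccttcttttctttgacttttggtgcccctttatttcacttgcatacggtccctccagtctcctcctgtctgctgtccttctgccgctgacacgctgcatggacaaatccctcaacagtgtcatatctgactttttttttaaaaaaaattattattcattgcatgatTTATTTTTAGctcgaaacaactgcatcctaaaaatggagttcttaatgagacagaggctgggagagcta

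Both strands were searched for 6 motifs of muscle and general promoters: the MEF2 box and the CArG box, matched by their usual 10-base consensus, a GATA site (AGATAA), a muscle E-box (CAGCTG), an M-CAT element (CATTCC) and a TATA box (TATAAA). Matches of different motifs may overlap, and in the printed windows none did. Casq2 had a MEF2 box whose first base lay 69 bases before the start. Pln had a GATA site 183 bases and a TATA box 219 bases before the start, and Abcc9 an E-box 27 bases and an M-CAT element 219 bases before it. Ryr2 and S100a1 had no match, which says only that these letters were not in these windows. The E-box was in 8 of the 29 member windows (27.6%) and in 13% of all 32851 windows in the table. These 8 windows belong to 6 genes, since Cacnb2 and Jph2 each have a pair, and the pair of Jph2 overlaps and holds the same match. The other motifs were in 1 of 29 (MEF2 box, 2.92% of all windows), 0 of 29 (CArG box, 1.47%), 3 of 29 (GATA, 9.99%), 2 of 29 (M-CAT, 12.6%) and 1 of 29 (TATA box, 12.4%). A match is a description of the sequence and not a site of binding.

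In WT heart the 2 genes of calcium reuptake stood far above the other members when levels were divided by exon length. Pln, which encodes phospholamban, the brake of the pump, was at 2089 ± 352 CPM per kb of exon (SD, n = 4). Atp2a2, the calcium pump of the sarcoplasmic reticulum, was at 2015 ± 108 CPM per kb, and the gap between them was smaller than their summed SDs. In CPM without division by length, Atp2a2 was at 11835, 11727, 12272 and 13169 in WT libraries 1 to 4 and at 11073, 12874, 11623 and 12858 in KO libraries 1 to 4. These ranges overlap in part, with KO library 1 the lowest value and WT library 4 the highest.

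The genes of calcium release and storage came next. S100a1, a calcium sensor that binds the release channel and the pump, was at 485 ± 23.0 CPM per kb. Hrc, a histidine-rich calcium-binding protein of the store, was at 333 ± 31.0 CPM per kb, within the spread of Casq2, the storage protein calsequestrin, at 306 ± 5.02. Jph2, the junctophilin that holds the store against the cell membrane, was at 96.2 ± 7.72 CPM per kb and Ryr2, the release channel itself, at 81.6 ± 9.18, again without a gap beyond their spread. Trdn, triadin, which links calsequestrin to the channel, was at 35.8 ± 2.67 CPM per kb. Asph, a locus that encodes junctin as well as a hydroxylase of the endoplasmic reticulum, was at 15.01 ± 0.310. Fkbp1b, a small protein that stabilises the closed channel, was the lowest of all 32 members at 0.625 ± 0.282 CPM per kb, on 27 reads over the 4 WT libraries, and its gap to Kcne1, at 0.952 ± 0.395, was smaller than their summed SDs.

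The channel genes covered a wide range of levels. Cacna2d1, an auxiliary subunit of the L-type calcium channel, was at 17.1 ± 3.03 CPM per kb and Cacna1c, its pore, at 14.1 ± 1.85, while Cacnb2, another auxiliary subunit, was at 4.87 ± 0.265. Slc8a1, the sodium-calcium exchanger, was at 11.6 ± 1.16 CPM per kb, and Camk2d, the calcium-dependent kinase that phosphorylates Ryr2 and Pln, at 6.85 ± 0.411. Among potassium channel genes, Abcc9, the regulatory subunit of the ATP-sensitive channel, was at 46.2 ± 10.9 CPM per kb and Kcnj11, its pore, at 33.5 ± 1.38. Kcnip2, the auxiliary subunit of the transient outward channel, was at 37.0 ± 6.12 CPM per kb, against 4.05 ± 0.173 for Kcnd2 and 2.46 ± 0.281 for Kcnd3, the pores it binds. The mRNA of the auxiliary subunit exceeded that of both pores on this scale.

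The remaining channel genes, the connexins and the sodium pump gene are given next. Scn4b, an auxiliary sodium channel subunit, was at 16.8 ± 2.39 CPM per kb. The inward rectifiers Kcnj2 and Kcnj12, which set the resting voltage, were at 7.58 ± 0.832 and 6.47 ± 0.385. The delayed rectifier genes Kcna5, Kcnh2 and Kcnq1 were at 13.3 ± 2.35, 11.9 ± 1.21 and 6.63 ± 0.496 CPM per kb, and Kcne1, the partner of Kcnq1, at 0.952 ± 0.395. The pacemaker channels Hcn2 and Hcn4 were at 3.90 ± 1.26 and 1.40 ± 0.419. Gja1, the main connexin of working heart muscle, was at 27.1 ± 5.16 CPM per kb and Gjc1, a connexin of conduction tissue and vessels, at 4.75 ± 0.55, and Atp1b1, the beta subunit of the sodium pump, at 73.4 ± 8.37.

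**Figure D1:**
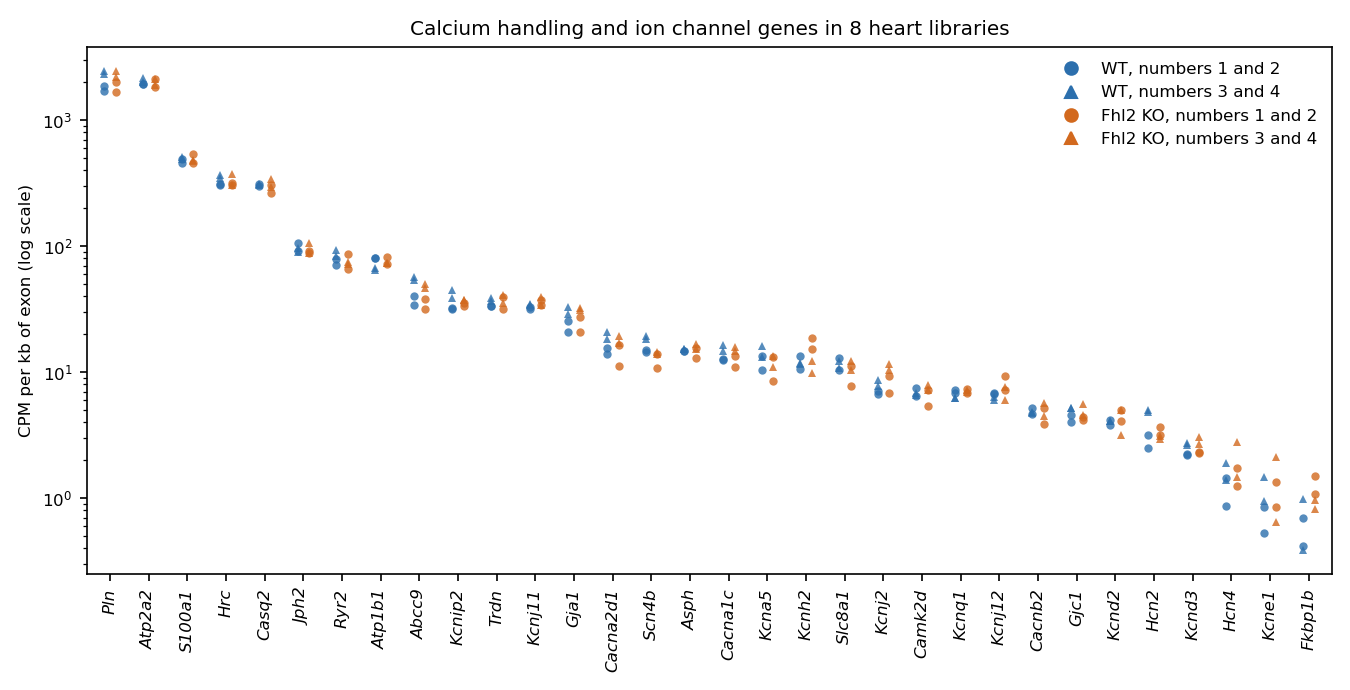
Level of the 32 genes in heart, in CPM per kb of exon on a log axis, with 1 point per WT (blue) or KO (orange) library, circles for numbers 1 and 2 and triangles for numbers 3 and 4. WT and KO points overlap for every gene, and WT means run from 2089 for Pln down to 0.625 for Fkbp1b.

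Several of these genes share exon bases with a gene on the opposite strand. The largest shares of exon length were 59.6% of Pln with Gm47644, 18.7% of Atp1b1 with Nme7 and 14.3% of Asph with Clvs1. The 3 partners held 801, 1274 and 155 reads over all libraries, against 483590 for Pln, 21519 for Atp1b1 and 51563 for Asph. Kcnq1 shares 2.96% of its exon bases with the antisense transcript Kcnq1ot1 (3933 reads, against 2660 for Kcnq1). Whether strand was used in counting is not given in the sources used here, so how reads in the shared bases were assigned is not known.

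The first comparison asked which of the genes differ between KO and WT heart. None of the 32 passed the test: by the quasi-likelihood test of edgeR with adjustment over 14159 genes, 0 members passed an adjusted p of 0.05, and 0.00706% of all genes tested did. That share is 1 gene, Fhl2. DESeq2 and limma-voom also called 0 members, and each of the 3 tools gave 2 of the 32 members at an unadjusted p under 0.05. Among all genes tested that share was 3.2% with edgeR, 2.34% with DESeq2 and 3.18% with limma-voom. The WT and KO libraries overlapped for all 32 members, while 2.38% of all genes tested had groups that did not overlap, 1.28% with KO higher and 1.1% with KO lower. Log2 fold changes of the members, KO over WT, had a median of 0.00, as had all genes tested, with 16 positive and 16 negative values.

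The release channel gene Ryr2 and the reuptake genes Atp2a2 and Pln had values near 0. Ryr2 was at 2279, 2032, 2419 and 2664 CPM in WT libraries 1 to 4 and at 1883, 2518, 2065 and 2164 CPM in KO libraries 1 to 4. Its log2 fold change was −0.12 ± 0.11 (SE), with groups that overlap. That of Atp2a2 was −0.02 ± 0.09. Pln was at 4742, 5136, 6454 and 6723 CPM in WT and 4658, 5554, 6051 and 6787 CPM in KO, with a log2 fold change of −0.00 ± 0.14. In both genotypes the Pln values of libraries 3 and 4 were above those of 1 and 2. The sign of the Pln and Atp2a2 values depended on the setting, as it did for 22 of the 32 members.

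A pair of channel genes had an unadjusted p under 0.05 and did not pass. Scn4b was at 72.4, 74.4, 91.2 and 96.2 CPM in WT and 69.2, 53.7, 72.5 and 69.0 CPM in KO. The sets touched only where the highest KO library met the lowest WT library, with a log2 fold change of −0.34 ± 0.12 (edgeR, unadjusted p = 0.0164, adjusted p = 0.9997). Kcnj2 was at 36.9, 38.8, 47.3 and 42.0 CPM in WT and 37.2, 51.2, 56.8 and 63.1 CPM in KO. Of the KO libraries 3 lay above every WT library and 1 did not, with a log2 fold change of 0.33 ± 0.14 (edgeR, unadjusted p = 0.0420, adjusted p = 0.9997). Fkbp1b had the value farthest from 0 (0.79 ± 0.38), on levels of 0.396 to 1.01 CPM in WT and 0.834 to 1.54 CPM in KO.

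The precision of these values sets what could be seen. The median SE over the 32 members was 0.12 on the log2 scale, and for 27 of them the interval of 2 SE on either side lay within a 1.5-fold change in either direction. Of a list of 114 other genes of calcium handling and cardiac excitation, 97 were tested in heart and 0 passed, with 0 at an unadjusted p under 0.05 and 0 with groups that do not overlap.

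**Figure D2:**
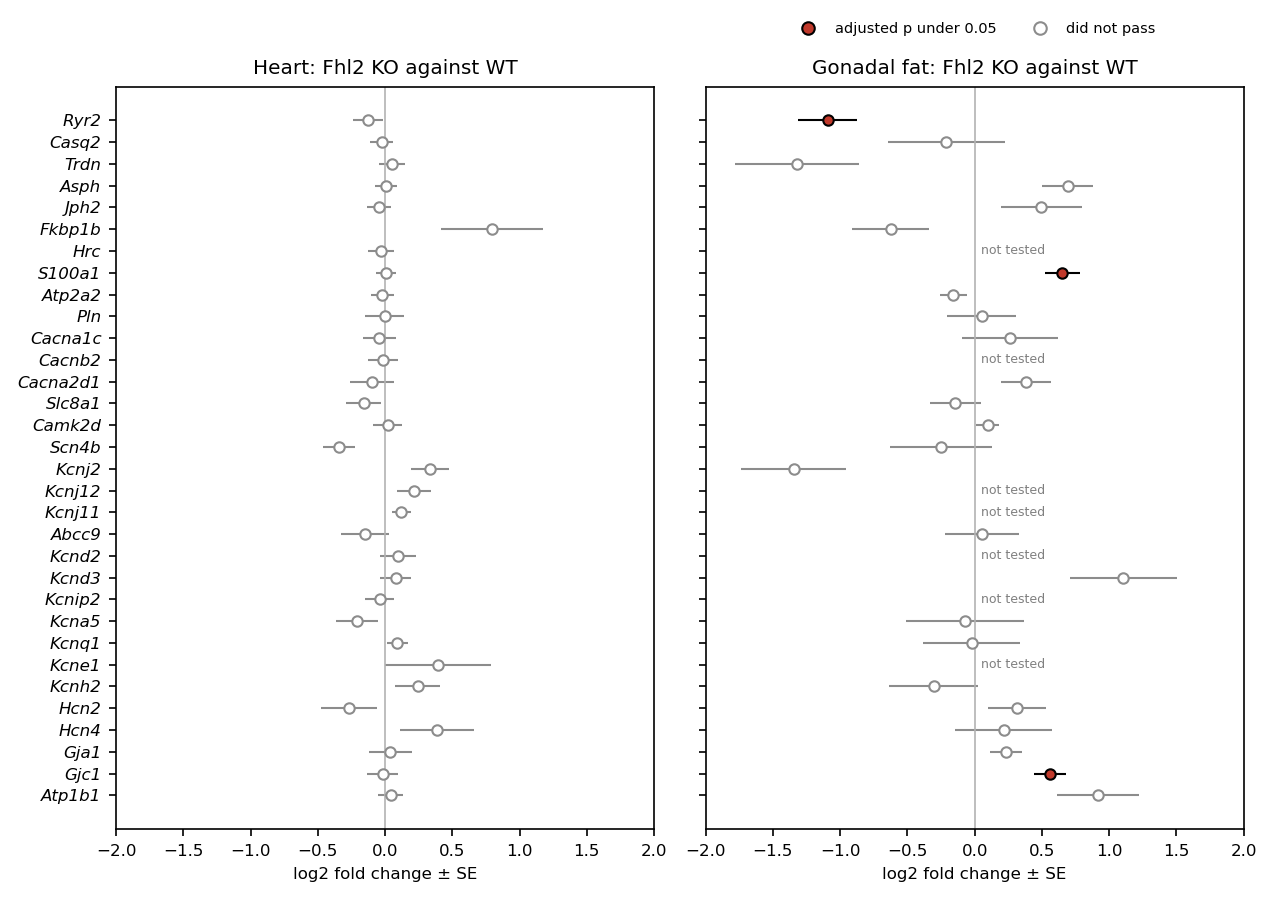
Log2 fold change of each gene, KO over WT, with its SE, in heart (left) and gWAT (right), where filled points passed an adjusted p of 0.05. In heart no point is filled, and Fkbp1b at 0.79 lies farthest from 0. In gWAT the filled points are Ryr2 at −1.09, S100a1 at 0.65 and Gjc1 at 0.56.

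The same comparison in gWAT gave 3 changed members. Ryr2 fell, and S100a1 and Gjc1 rose. Here 25 of the 32 genes passed the filter on low counts, and the 7 that did not (Hrc, Cacnb2, Kcnj12, Kcnj11, Kcnd2, Kcnip2 and Kcne1) were at no more than 0.687 CPM in any gWAT library. Of all 15200 genes tested, 5.49% passed an adjusted p of 0.05, with 2.01% higher and 3.48% lower in KO. Over the members, 2 were higher and 1 lower, and 8 of 25 had an unadjusted p under 0.05, as had 23.1% of all genes tested.

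Ryr2 was at 7.27, 10.2 and 11.3 CPM in WT libraries 1, 3 and 4 and at 4.72, 3.79 and 5.04 CPM in KO libraries 1, 3 and 4. The groups did not overlap, and WT library 1 was the WT value nearest to KO. The log2 fold change was −1.09 ± 0.22 (edgeR, adjusted p = 0.0323). This is a low level, since WT heart held 2348 ± 264 CPM (SD, n = 4).

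S100a1 was at 33.2, 39.5 and 37.9 CPM in WT and 63.6, 60.6 and 49.98 CPM in KO. All 3 KO libraries were above all WT libraries, with a log2 fold change of 0.65 ± 0.13 (edgeR, adjusted p = 0.0326). Gjc1 was at 17.9, 13.9 and 17.3 CPM in WT and 23.3, 24.1 and 25.1 CPM in KO, again without overlap, with a log2 fold change of 0.56 ± 0.12 (edgeR, adjusted p = 0.0380). In heart the same 2 genes had overlapping groups, with means of 337 ± 15.99 against 339 ± 23.8 CPM for S100a1 and 23.8 ± 2.75 against 23.5 ± 3.20 CPM for Gjc1 (SD, n = 4 each).

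The 3 calls were kept without WT library 1 and lost without each of the other 5 libraries. With WT library 1 left out their adjusted p by edgeR was 0.00168 (Ryr2), 0.0140 (S100a1) and 0.0118 (Gjc1), and 6 members passed, as did 2908 of all genes tested against 834 with all libraries. Without WT library 3 the 3 adjusted p-values were 0.0779, 0.0571 and 0.0834, without WT library 4 they were 0.145, 0.141 and 0.143, without KO library 1 0.116, 0.118 and 0.116, without KO library 3 0.115, 0.118 and 0.128, and without KO library 4 0.105, 0.0967 and 0.133, so that 0 members passed in each of these 5 fits. The number of members called was 3 with limma-voom, 7 with DESeq2 and 8 with 1 fit of all 14 libraries, where the number over all genes was 477, 1769 and 1725.

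A further 5 members had an unadjusted p under 0.05 without passing. Asph was at 279, 154 and 194 CPM in WT and 344, 326 and 337 CPM in KO, which did not overlap (0.69 ± 0.19, edgeR, adjusted p = 0.0748). Atp1b1 was at 16.9, 7.22 and 13.9 CPM in WT and 22.6, 31.3 and 17.7 CPM in KO, also without overlap (0.92 ± 0.31, edgeR, adjusted p = 0.118). Kcnd3 was at 3.44, 1.14 and 4.53 CPM in WT and 6.33, 6.96 and 6.29 CPM in KO, without overlap (1.11 ± 0.39, edgeR, adjusted p = 0.139). For these 3 genes WT library 3 was the lowest.

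The other 2 had lower means in KO and groups that overlapped. Kcnj2 was at 5.61, 15.8 and 11.7 CPM in WT and 3.06, 4.21 and 5.88 CPM in KO, with WT library 1 below the highest KO library (−1.34 ± 0.39, edgeR, adjusted p = 0.0837). Trdn was at 13.6, 4.33 and 6.23 CPM in WT and 1.77, 4.67 and 3.07 CPM in KO, with WT library 3 below the highest KO library (−1.32 ± 0.46, edgeR, adjusted p = 0.131). Groups did not overlap for 7 members that were higher and 3 that were lower, out of 25, where 27.6% of all genes tested had groups that did not overlap, 12.4% higher and 15.2% lower.

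Cell-type markers moved between the same gWAT libraries. The summed level of 5 macrophage markers was 799.7 to 3417 CPM in WT and 469.6 to 541 CPM in KO, and 4 of the 5 (Cd68, Adgre1, Trem2 and Gpnmb) fell by the same test. The sum of 4 markers of the mesothelium, the layer that covers the depot, was 75.4 to 168 CPM in WT and 199 to 342 CPM in KO, and 2 of the 4 (Msln and Krt19) rose. The 4 white adipocyte markers summed to 7270 to 12804 CPM in WT and 10506 to 10764 CPM in KO, and 0 of the 4 passed. The part of these cell types in the values of Ryr2, S100a1 and Gjc1 was not tested. The 4 skeletal muscle markers summed to no more than 0.730 CPM in any gWAT library. The 6 cardiomyocyte markers summed to 8.91 to 13.5 CPM in WT and 10.5 to 11.4 CPM in KO. The part of muscle cells in the values of Ryr2, S100a1 and Gjc1 was not tested either.

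**Figure D3:**
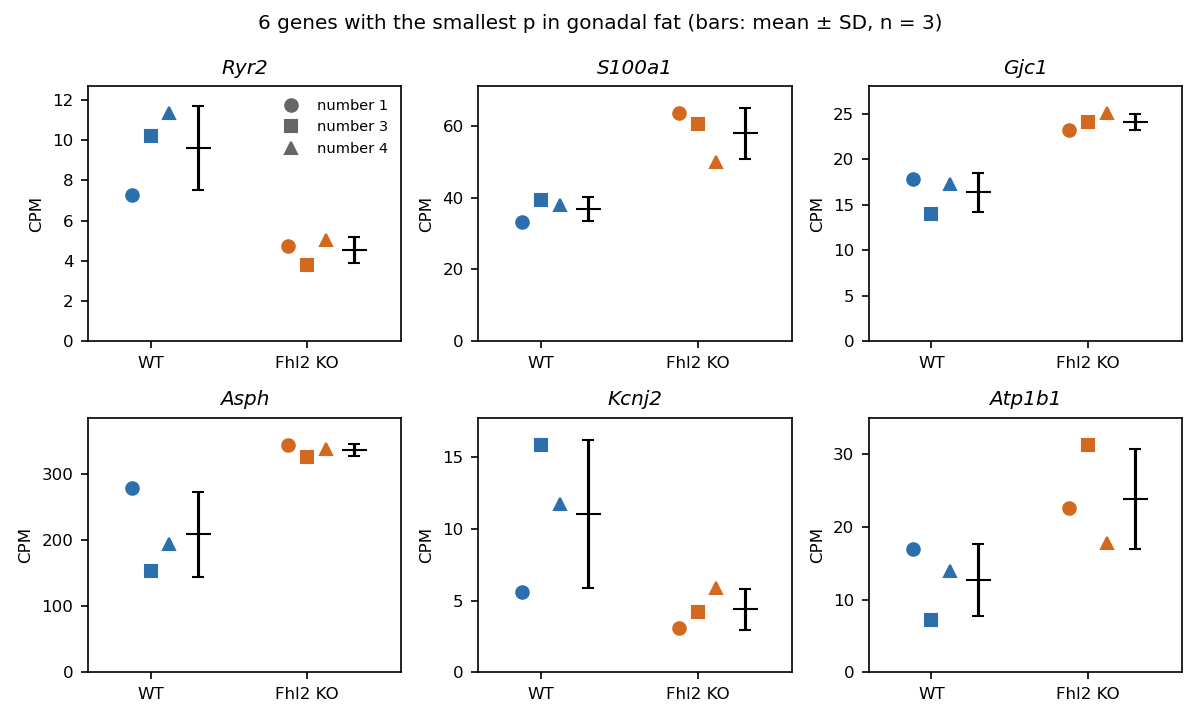
Level in gWAT, in CPM on a linear axis from 0, of the 6 members with the smallest p, with 1 point per library by its number and bars for mean ± SD (n = 3). WT and KO points are separate for Ryr2, S100a1, Gjc1, Asph and Atp1b1 and overlap for Kcnj2, where WT library 1 at 5.61 CPM lies below KO library 4 at 5.88 CPM.

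Among the other genes of calcium handling and excitation, 83 of 114 were tested in gWAT, of which 2 rose and 5 fell. Of all 15200 genes tested, 2.01% were higher and 3.48% lower in KO by the same test. Atp2b4, a calcium pump of the cell membrane, rose from 281, 177 and 194 CPM in WT to 386, 373 and 404 CPM in KO (0.84 ± 0.17, edgeR, adjusted p = 0.0335). Scn7a, an atypical sodium channel, rose from 147, 84.1 and 116 CPM to 178, 249 and 246 CPM (0.96 ± 0.21, edgeR, adjusted p = 0.0392). For both, every KO library exceeded every WT library.

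Of the 5 that fell, 4 are named here. Cacna1d, the pore of another L-type calcium channel, fell from 6.24, 12.1 and 10.7 CPM to 4.45, 4.31 and 4.11 CPM (−1.18 ± 0.26, edgeR, adjusted p = 0.0391). WT library 1 was the WT value nearest to KO. Kcnab2, an auxiliary subunit of voltage-gated potassium channels (−1.11 ± 0.25), Kcnj14, an inward rectifier (−0.94 ± 0.20), and Tmem38b, a potassium channel of calcium stores (−0.58 ± 0.13), also fell. With WT library 4 or any 1 of the KO libraries left out, 0 of all genes tested passed, so that none of these 7 calls was made in those 4 fits. The median log2 fold change over the 83 genes was −0.03 and over the 25 members 0.06, against 0.00 for all genes tested.

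Whether the KO effect itself differed between heart and gWAT was tested as an interaction over all 14 libraries. In gWAT alone 25 of the 32 members passed the filter on low counts, and the others entered here through their heart counts. Kcnj12 had 0 reads in gWAT, so its KO effect there could not be measured. S100a1 was the 1 member of 32 that passed, with a difference of −0.64 ± 0.14 on the log2 scale, heart minus gWAT (edgeR, adjusted p = 0.0413), and 1.15% of the 16014 genes tested passed. Kcnj2 (1.67 ± 0.40, adjusted p = 0.0526) and Ryr2 (0.97 ± 0.23, adjusted p = 0.0540), by the same test, did not pass, and 10 of 32 members had an unadjusted p under 0.05, as had 15.2% of all genes tested. The S100a1 call was lost with limma-voom (adjusted p = 0.0617), with the replicate block (edgeR, adjusted p = 0.0663) and in 13 of 14 fits that left out 1 library, where its adjusted p was at most 0.111. Without gWAT WT library 1 it was 0.0209, and 6 members passed, as did 1315 of all genes tested against 184 with all libraries. The interaction of Ryr2 passed with DESeq2 (adjusted p = 0.00325), with no filter beyond 1 read (edgeR, adjusted p = 0.0146) and without gWAT WT library 1 (edgeR, adjusted p = 0.00319). That of Kcnj2 passed in the same 3 fits (adjusted p = 0.00335, 0.00136 and 0.000949) and with the replicate block (edgeR, adjusted p = 0.0217). In the other fits that left out 1 library neither passed. Among the other pathway genes Trpc1, a cation channel, passed, with a difference of −1.15 ± 0.26 (edgeR, adjusted p = 0.0443).

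The level in WT heart was compared with that in WT gWAT, using the same WT libraries that serve as controls above. The members were chosen as genes of the heart muscle cell, so higher levels in heart follow in part from that choice. In gWAT alone 25 of the 32 passed the filter on low counts, and the others entered this fit through their heart counts. Of the 32 members 30 were higher in heart, 1 was lower and 1 did not pass. Of all 15287 genes tested 69.4% passed, 33.3% higher and 36.1% lower in heart. The median log2 difference over the members was 4.28, against −0.03 over all genes tested. Heart and gWAT libraries did not overlap for 31 members, 30 higher and 1 lower, against 70% of all genes tested, 33.8% higher and 36.2% lower. An unadjusted p under 0.05 was found for 31 members and 71.8% of all genes. All 31 calls were made in every alternative setting, and without gWAT WT library 1 all 32 members passed.

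The largest differences were in genes of the calcium store and of potassium channels. Pln was at 2.52, 1.79 and 1.90 CPM in WT gWAT, 11.45 ± 0.31 on the log2 scale below heart. Kcnj12 (11.01 ± 0.32), Hrc (10.98 ± 0.33), Kcnj11 (10.63 ± 0.29), Casq2 (9.69 ± 0.32) and Kcnip2 (9.47 ± 0.26) were next by the fitted value. Kcnj11 had 4 reads over the 3 WT gWAT libraries, and leaving out 1 library gave 10.05 to 11.84, so its place among these genes is not fixed. Kcnj12 had 0 reads in all 6 gWAT libraries, so its fitted value and place rest on no measured gWAT level. Its heart level was at least 345-fold higher, against a floor of 3 counts over the 3 WT gWAT libraries. Ryr2 differed by 7.93 ± 0.24 and Atp2a2, whose pump also serves cells outside muscle, by 6.22 ± 0.20. Atp2a2 was at 176, 156 and 160.2 CPM in WT gWAT.

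A few members were well represented in fat. Per kb of exon, S100a1 was the highest member in WT gWAT at 53.1 ± 4.70 CPM (SD, n = 3), followed by Atp2a2 at 27.0 ± 1.71 and Asph at 12.98 ± 3.98, and these 3 were separated beyond their spread. Atp1b1 at 4.12 ± 1.62 and Camk2d at 3.60 ± 0.123 CPM per kb came next and were not. The log2 differences between heart and gWAT were 3.19 ± 0.11 for S100a1, 0.93 ± 0.09 for Camk2d and 0.54 ± 0.13 for Gjc1, the smallest of the higher calls. Asph did not pass (0.21 ± 0.18, edgeR, adjusted p = 0.305), at 242 ± 4.99 CPM in heart and 209 ± 64.1 CPM in gWAT.

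Fkbp1b was the 1 member that was lower in heart. It was at 0.430, 0.714, 1.01 and 0.396 CPM in the 4 WT heart libraries and 1.72, 2.69 and 2.53 CPM in the 3 WT gWAT libraries. The tissues did not overlap (−1.86 ± 0.36, edgeR, adjusted p = 0.00125, and 0.000144 to 0.00712 over the alternatives), on 27 reads in heart and 136 in gWAT.

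**Figure D4:**
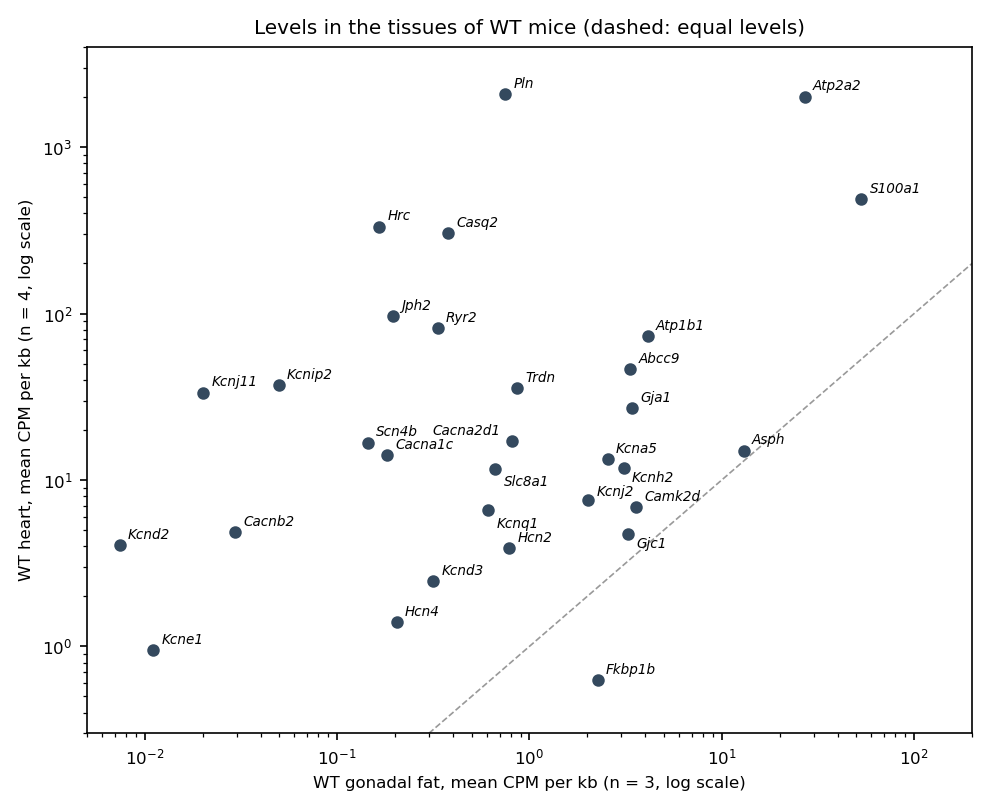
Mean level of each gene in WT heart (vertical axis, n = 4) against WT gWAT (horizontal axis, n = 3), both in CPM per kb of exon on log axes, with a dashed line at equal levels. Fkbp1b lies below the line, Asph (15.01 in heart, 12.98 in gWAT) close to it and the other genes above it, while Kcnj12 is not drawn because it had 0 reads in gWAT.

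The last comparison describes the heart libraries by their title numbers, 1 and 2 against 3 and 4, in both genotypes. The split was taken from earlier results of these data, and what the numbers stand for is not labelled, so values are given with no test. Of the 32 members 26 had higher and 6 lower values in libraries 3 and 4, with a median log2 difference of 0.12, against 0.00 over all genes tested. For 7 members all 4 libraries numbered 3 or 4 lay above all 4 numbered 1 or 2, and for 0 members below. Among all genes tested 5.72% lay above in this way and 7.17% below.

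Abcc9 was at 336, 285, 268 and 319 CPM in WT libraries 1 and 2 and KO libraries 1 and 2, in that order, and at 448, 477, 390.1 and 422 CPM in WT libraries 3 and 4 and KO libraries 3 and 4. The 2 sets were well apart in both genotypes, by 0.52 ± 0.08 on the log2 scale. Gja1, in the same order, was at 216, 262, 214 and 284 CPM against 340.4, 296, 317 and 333 CPM, a difference of 0.40 ± 0.09. Cacna2d1 was at 194, 172, 140.3 and 205 CPM against 227, 258, 211 and 240.0 CPM, a difference of 0.39 ± 0.10. The sets of these 2 genes were separated by narrow gaps.

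Pln, with the values given above, differed by 0.37 ± 0.07. Cacna1c was at 271, 264, 233 and 284 CPM against 313, 348, 312 and 333 CPM, a difference of 0.31 ± 0.07. The transient outward genes Kcnd3 (0.30 ± 0.08) and Kcnip2 (0.25 ± 0.08) were the other 2 that did not overlap, while their partner Kcnd2 overlapped (−0.04 ± 0.13). Kcnip2 ranged from 110.4 to 124 CPM in libraries 1 and 2 and from 129.8 to 155 CPM in libraries 3 and 4. The lowest member was Kcnh2 (−0.33 ± 0.13), with overlapping sets. Atp2a2 (0.07 ± 0.07), Ryr2 (0.09 ± 0.10) and Casq2 (0.09 ± 0.07) also overlapped.

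**Figure D5:**
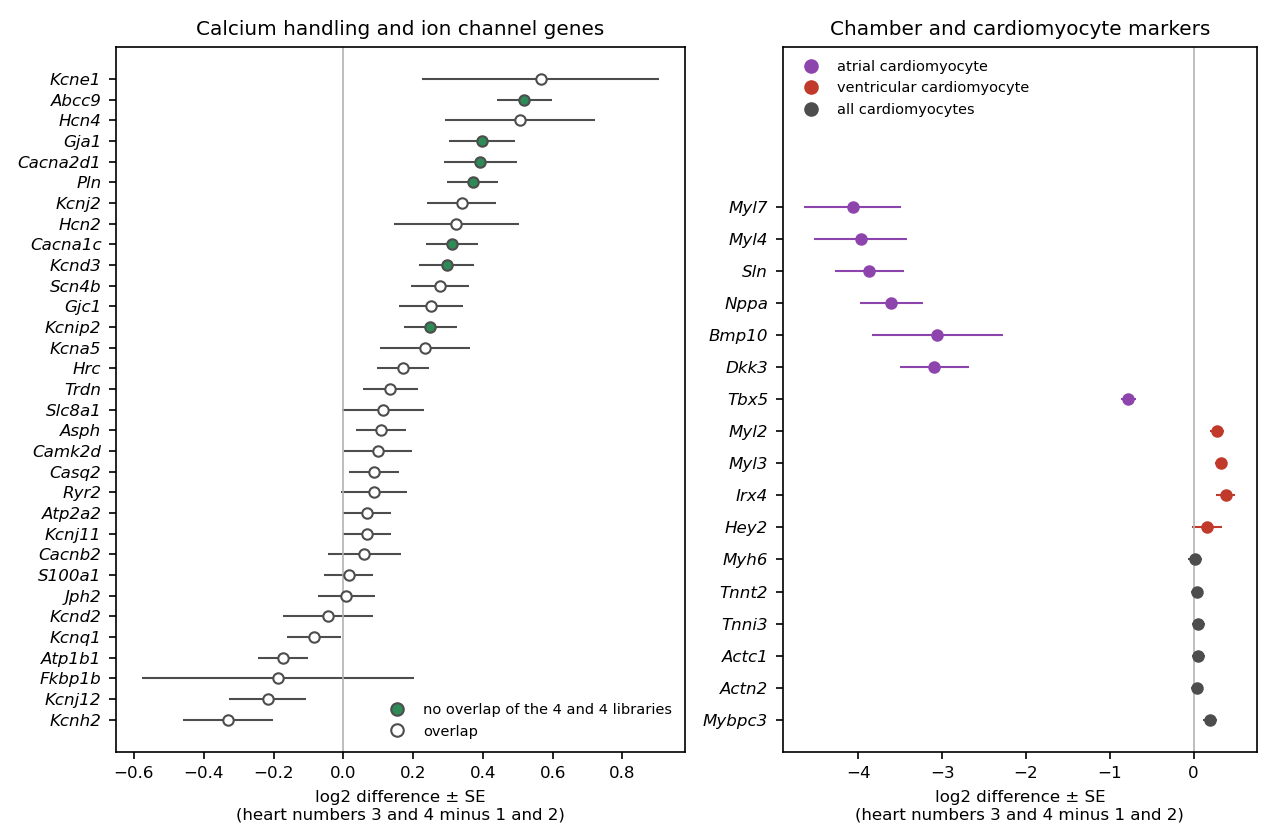
Log2 difference between heart libraries numbered 3 and 4 and those numbered 1 and 2, adjusted for genotype, with its SE, for the 32 genes (left) and for cardiomyocyte markers (right, on a wider axis). Filled points on the left mark the 7 genes whose sets do not overlap, from Kcnip2 at 0.25 to Abcc9 at 0.52, and on the right the 7 atrial markers lie below 0, with Myl7 at −4.07.

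Markers of several cell types differed between the same sets of libraries. The sum of 7 atrial cardiomyocyte markers was 3841 to 5486 CPM in libraries 1 and 2 and 139 to 1118 CPM in libraries 3 and 4, and all 7 were lower, with a median of −3.61 on the log2 scale. The sum of 4 ventricular markers was 8207 to 9894 CPM against 9767 to 11557 CPM, and that of 6 markers of all cardiomyocytes 30704 to 33287 CPM against 30300 to 35696 CPM. The 4 pericyte markers summed to 925 to 1147 CPM against 1207 to 1520 CPM, the 4 mesothelial markers to 151 to 232 CPM against 35.6 to 78.7 CPM, and the 4 smooth muscle markers to 211 to 478 CPM against 169 to 250.2 CPM. None of the 7 atrial markers was at 0 in all libraries of either set. The part of these cell types in the values of the 32 genes was not tested.

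The KO comparison in heart was repeated within these sets. With the set as a covariate 0 of 32 members passed by edgeR (2 at an unadjusted p under 0.05), against 2 of all genes tested (5.68% unadjusted). Within libraries 1 and 2 alone 0 members passed (2 unadjusted), against 1 of all genes (6.04% unadjusted). Within libraries 3 and 4 alone 0 members passed (5 unadjusted), against 17 of all genes (6.28% unadjusted). The number of WT and KO libraries in the latter fits was 2 and 2.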

How the data were processed

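Per the labels' protocols, RNA was isolated with Trizol from frozen tissue and sequenced as Kapa mRNA HyperPrep libraries. Values in the deposited table are raw counts of reads per Ensembl gene, with no normalization by the authors, and 0 of its columns lack a sample. The submitters' processing notes list HISAT2 2.1.0, HTSeq 0.11.0, Trimmomatic 0.32, limma, Picard and FastQC and the build mm10, without saying what each did. Which annotation was used, whether strand was used and whether genes were filtered is not given in the sources used here. Of the 33459 IDs, 33406 were found in GENCODE M21 (GRCm38), from which exon lengths were taken.

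Counts were tested with edgeR 4.0.16 (R 4.3.3): filterByExpr by group, TMM scaling, the quasi-likelihood F test and Benjamini-Hochberg adjustment over all genes tested, with a threshold of 0.05. KO was compared with WT in each tissue by itself, WT heart with WT gWAT, and the difference of the KO effects in 1 fit of all 14 libraries. The SE of a log2 fold change is its size over the square root of F. CPM use TMM-scaled library sizes over all 14 libraries. Levels of different genes are compared only per kb of exon. Exon length is that of all annotated exons of a gene, merged, which can exceed the length of 1 mRNA. Levels per kb may then be too low, and the SDs between libraries do not cover this. The fits were tested on simulated data with known fold changes. Alternatives were RLE scaling, no filter beyond 1 read, DESeq2 1.42.0, limma-voom (limma 3.58.1), 1 fit of all libraries, a threshold of 0.1, a replicate block, the heart number set as a covariate or as separate fits, and leaving out each library. Tables and figures were made with Python 3.11.15, pandas 2.3.3 and matplotlib 3.10.9.

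All 32 members are covered, with numbers for those near or past a threshold. Of 116 other pathway genes 114 were found, and those past the threshold are named, up to 6 per comparison and direction, except for 1 that is not reported here. The members and lists were chosen with earlier results of these data known. Within groups no pair of libraries was a duplicate (lowest chi-square per degree of freedom 3.74). Whether equal numbers pair libraries was checked with correlations of deviations from group means over 11802 genes. In heart the 4 WT and KO pairs of equal number had correlations of 0.275, 0.412, 0.440 and 0.299, all above 0.1. Unlike numbers within 1 and 2 or within 3 and 4 gave 0.524 (WT 1, KO 2), 0.180 (WT 2, KO 1), 0.362 (WT 3, KO 4) and 0.306 (WT 4, KO 3). Pairs across these sets gave −0.512 to −0.176. The heart values thus follow the 2 sets and do not show that equal numbers pair libraries. In gWAT the pairs of equal number had −0.105, −0.244 and 0.0720, so no pairing was seen there.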

Additional observations from a re-analysis of the deposited data

Results flagged for a closer look

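Kcnd2, a pore of the transient outward potassium channel, was at 19.5 CPM in heart WT library 1, apart from the other 3 WT libraries, whose values reached 21.3 CPM and lay close together. The gap to the nearest of them, over the group's range, was 0.983, and 64 groups of 4 were examined in this way, of which 1 stood out. Chance gives about 1 in 20 groups.

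The KO effect differed between heart and gWAT in the main fit for S100a1, the calcium sensor, by −0.64 on the log2 scale, and for Trpc1, a cation channel, by −1.15. The S100a1 call was kept in 1 of 14 fits that left out 1 library, and how the Trpc1 call depends on the setting is not given here. Trpc1 was at 11.4, 10.2, 11.6 and 8.82 CPM in WT heart, 8.11, 10.2, 9.09 and 8.49 CPM in KO heart, 3.49, 2.04 and 3.36 CPM in WT gWAT and 6.49, 5.45 and 4.84 CPM in KO gWAT. All 3 KO gWAT libraries were above the WT gWAT libraries, while the heart groups overlapped.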

How the results depend on the processing

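In gWAT the count of 3 members called (834 of all genes) became 5 at an adjusted p threshold of 0.1 (1800), 8 with no filter beyond 1 read (1600, 31 members tested), 7 with DESeq2 (1769), 8 with 1 fit of all 14 libraries (1725) and 0 with the replicate block (0 of all genes, 7 members and 19.2% of genes at an unadjusted p under 0.05 in edgeR), and it ranged from 0 to 6 when 1 library was left out. It was 3 with RLE scaling (835) and with limma-voom (477). For the interaction the count of 1 (184 of all genes) became 3 at a threshold of 0.1 (559), 4 with no filter (533) and 4 with DESeq2 (669). It became 0 with limma-voom (69 of all genes, 9 members and 14.1% of genes at an unadjusted p under 0.05). It ranged from 0 to 6 when 1 library was left out. With the replicate block the count was 1, but Kcnj2 passed (adjusted p = 0.0217) and S100a1 did not (adjusted p = 0.0663). Correlations showed no pairing of the gWAT libraries by number but cannot exclude one, so this block adds terms without a known pairing. In heart the replicate block gave 0 members, with 3 members and 5.36% of all genes at an unadjusted p under 0.05 in edgeR. The block changed no other call. The cause of these changes was not tested, except that fits without 1 library hold fewer samples. In all genes of gWAT the count of 834 was 2908 without WT library 1, 132 without WT library 3 and 0 without each of the other 4.

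Of the called members, 0 changed sign in any setting. In heart the log2 fold change of Pln (−0.00) was positive with RLE scaling (6.66e-05), DESeq2 (6.89e-05), the number set as a covariate (0.0024) and libraries 1 and 2 alone (0.0509), and ranged from −0.0900 to 0.0851 when 1 library was left out. That of Atp2a2 was 0.0264 and that of Ryr2 0.0325 in libraries 1 and 2 alone. Leaving out 1 library gave −0.0505 to 0.0196 for Atp2a2. The count of 7 members whose number sets do not overlap was 8 with RLE scaling, 5 without scaling factors and 7 to 10 without 1 library. At unchanged scaling, leaving out a library cannot make separate sets overlap, so this last range is no check of the count. The share of all genes in these settings is not given here. Low counts limit Fkbp1b in heart (27 reads in WT) and the 7 untested members in gWAT.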

Other observations

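Other genes of calcium handling and excitation also differed between heart libraries numbered 1 and 2 and those numbered 3 and 4. Of 97 tested, 7 were higher and 12 lower in libraries 3 and 4 without overlap, where all genes tested gave 5.72% and 7.17%, and the median log2 difference was −0.04. No test was made. Sln, the pump inhibitor sarcolipin, was at 194, 215, 253 and 293 CPM in WT libraries 1 and 2 and KO libraries 1 and 2, and at 2.33, 6.64, 24.8 and 49.1 CPM in WT libraries 3 and 4 and KO libraries 3 and 4 (−3.87 ± 0.41). Atp2b2, a calcium pump of the cell membrane (−2.14 ± 0.37), Cacna2d3, a calcium channel subunit (−2.09 ± 0.30), and Cacna1h, a T-type calcium channel (−1.31 ± 0.16), were also lower. So were Gja5, a connexin of atria and conduction tissue (−1.03 ± 0.14), and Kcnj3 and Kcnj5, the subunits of the acetylcholine-gated potassium channel (−0.86 ± 0.12 and −0.48 ± 0.07). Sln is also 1 of the 7 atrial markers, whose sum was 3841 to 5486 CPM in libraries 1 and 2 and 139 to 1118 CPM in libraries 3 and 4, and the part of atrial cells in these values was not tested. Among the higher genes, Cacng6, a calcium channel subunit, was at 0.714 to 0.860 CPM in libraries 1 and 2 and 2.38 to 3.85 CPM in libraries 3 and 4 (1.95 ± 0.28), and Kcnk2, a background potassium channel, differed by 0.62 ± 0.17. These genes were chosen after their values were seen.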
